A study of Saccharomyces cerevisiae with 9 samples.

Results

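The genes described here are the 31 genes of ergosterol biosynthesis and sterol regulation in budding yeast, Saccharomyces cerevisiae. They are a set given by gene names, with no measured value in its rule: the enzymes of the mevalonate and ergosterol pathway, their electron donors NCP1 and CYB5, the sterol acyltransferases ARE1 and ARE2, and the transcription factors UPC2, ECM22 and SUT1. They make up 31 of the 7128 gene entries in the count table, and all 31 passed the filter on low counts that left 6338 genes for testing.

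The study compared RNA from yeast cells that made very large amounts of a green fluorescent protein with RNA from cells that did not. All cells were of the diploid strain BY4743 (MATa/α his3Δ1/his3Δ1 leu2Δ0/leu2Δ0 LYS2/lys2Δ0 met15Δ0/MET15 ura3Δ0/ura3Δ0) and carried the multicopy plasmid pTOW40836. The moxGFP group, labelled MOXop, expressed moxGFP, a GFP variant built without cysteines, and the EGFP group, labelled GFPop, expressed the ordinary enhanced GFP, each from the strong TDH3 promoter. The GFPs differ in more than cysteine, as the paper also describes better folding and a higher protein level for moxGFP than for EGFP. The part of cysteine in any difference between them was not tested. The control group, labelled Vector, carried the plasmid with no GFP. Cultures were grown at 30 °C in medium without leucine and uracil and harvested in the logarithmic phase, and 3 biological replicates were sequenced per group, 9 libraries in all. Selection for the weak LEU2 allele on the plasmid keeps its copy number high, and copy number can differ between the groups, so the comparison with the vector control contains the GFP and any change in plasmid load together. As each library holds the RNA of a whole culture, fewer cells that use a gene and less RNA per cell cannot be told apart.

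Ergosterol is the main sterol of fungal membranes and takes the place that cholesterol has in animals. Its synthesis starts from acetyl-CoA. The mevalonate pathway builds isoprenoid units, these are joined into squalene, squalene is closed into lanosterol, and the late enzymes at the endoplasmic reticulum (ER) turn lanosterol into ergosterol in steps that consume much oxygen and include heme enzymes. Upc2 and Ecm22 are the sterol-sensing activators of many ERG genes, and surplus sterol is stored as steryl esters in lipid droplets.

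Gene counts per library ranged over 8941674 to 9064524 in moxGFP cells, 7022201 to 9569895 in EGFP cells and 10643868 to 12959660 in vector cells. The transgenes followed the labels: the moxGFP entry took 4.11 to 31.1% of gene counts in moxGFP libraries, against at most 0.723% elsewhere, and the EGFP entry 11.2 to 23.8% in EGFP libraries, against at most 0.413% elsewhere. The library of moxGFP replicate 2 stood apart. Ribosomal RNA took 61.1% of its gene counts, against 2.73 to 23.0% in the other 8 libraries, its moxGFP share was the lowest of its group, and it correlated with the other moxGFP libraries at r = 0.827 and 0.829 across genes (log2 CPM), where all other replicate pairs lay between 0.955 and 0.98. The counts of called members, the calls with moxGFP and the members it moved most are therefore given with and without it. As a check of the diploid state, 14 mating and haploid-specific genes that a MATa/α diploid represses were read. Their summed level was scaled with the TMM factors. It was 92.3 to 103 CPM in moxGFP, 71.4 to 86.3 CPM in EGFP and 94.4 to 113 CPM in vector libraries. The highest single count was 358, for HO in a vector library. The sum hides single markers that moved in opposite directions. Scaled to gene counts alone, MF(ALPHA)1 averaged 15.9 CPM in moxGFP, 4.58 CPM in EGFP and 0.99 CPM in vector cells. HO averaged 6.88, 4.72 and 22.2 CPM in the same order. The similar sums therefore do not settle the diploid state. Of the 13 markers that could be tested, 3 were higher and 3 lower with moxGFP (23.1 and 23.1%, against 14.8 and 14% of all genes). With EGFP, 1 was higher and 2 lower (7.69 and 15.4%, against 7.6 and 7.76% of all genes).

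In vector cells the most abundant transcripts of the pathway were those of its first and its last enzyme. Levels between genes were set side by side per kilobase of coding sequence (CPM per kb, where CPM is the count scaled to library size with edgeR's TMM factors). ERG10 (YPL028W), the acetyl-CoA acetyltransferase that opens the mevalonate pathway, averaged 1227 CPM per kb in vector cells and ERG4 (YGL012W), the reductase that makes ergosterol itself, 1037. ERG2 (YMR202W), a sterol isomerase of the late pathway, followed at 1014, and ERG3 (YLR056W), a sterol desaturase, at 643. The libraries of ERG10, ERG4 and ERG2 overlapped in level, at 1106 to 1386, 969 to 1122 and 824 to 1110 CPM per kb, while those of ERG3 lay below them, at 488 to 797. In both GFP groups this order was different: ERG2 led, with 655 CPM per kb in moxGFP cells and 798 in EGFP cells, while ERG10 was at 329 in moxGFP cells and 433 in EGFP cells, and ERG4 was at 303 in moxGFP cells and 262 in EGFP cells. The transcription factors and ERG29 (YMR134W) were the least abundant members in all groups. In vector cells the factors' means lay between 2.49 CPM per kb for UPC2 (YDR213W) and 7.03 CPM per kb for ECM22 (YLR228C), with SUT1 (YGL162W) between them.

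As a share of all counts from open reading frames, the 31 genes together took 0.754 ± 0.317% in moxGFP cells, 0.891 ± 0.0745% in EGFP cells and 1.03 ± 0.0258% in vector cells (SD, n = 3 each). These are descriptions with no test. The 3 EGFP libraries, at 0.807 to 0.949%, all lay under the 3 vector libraries, at 1.01 to 1.06%. The moxGFP libraries reached from 0.393%, in replicate 2, to 0.984%, and their mean without that replicate was 0.935%. ERG10 and ERG4 alone held 17.6 ± 5.31% of the pathway's counts in moxGFP cells, 17.9 ± 0.598% in EGFP cells and 31.8 ± 1.51% in vector cells. Without these 2 genes the share of open reading frame counts was 0.632 ± 0.289% in moxGFP cells (0.797% without replicate 2), 0.731 ± 0.0647% in EGFP cells and 0.701 ± 0.0306% in vector cells. Without ERG10 and ERG4, the EGFP mean of this share was no longer under that of vector cells. This depended on the scaling. As a share of all gene counts, ribosomal RNA and GFP included, it was still under, at 0.527 ± 0.0288% in EGFP cells and 0.599 ± 0.03% in vector cells. With the TMM factors used for the tests, 24 of the 31 log2 fold changes with EGFP were below 0, so the lower values were not confined to these 2 genes.

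**Figure D1:**
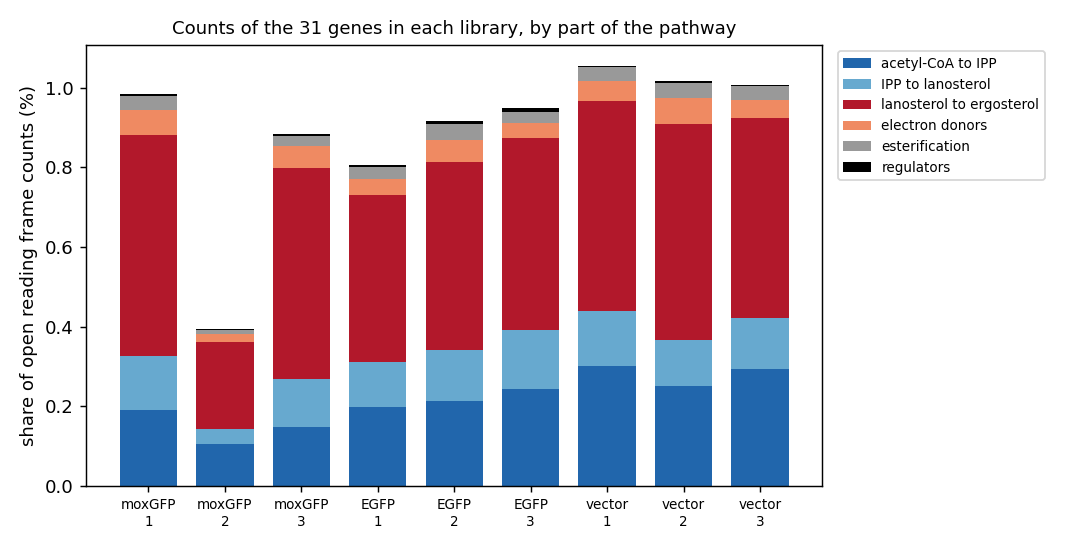
Stacked bars give, for each of the 9 libraries, the percent of open reading frame counts taken by the 31 genes, split by part of the pathway. The bar of moxGFP replicate 2 is the lowest, at 0.393%, and the 3 vector bars are the tallest, at 1.01 to 1.06%.

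EGFP overexpression against the vector control asks how the pathway responds to the cysteine-containing protein. Of the 31 genes, 4 were lower and 0 were higher at a false discovery rate (FDR, the Benjamini-Hochberg adjusted p of edgeR's quasi-likelihood test over the 6338 genes) under 0.05. That is 12.9% of the genes called lower, where 7.76% of all genes tested were, and none called higher, where 7.6% of all genes were. At an unadjusted p under 0.05 there were 10. The median log2 fold change was -0.51 over the members and 0.09 over all genes, and 24 of the 31 values were below 0. With library size alone or the ERCC spike-ins in place of TMM none of the 4 was called, while calls over all genes fell to 1.81 and 0.331% of those tested. The folds of ERG4 and ERG10 were then -1.55 and -1.05 with library size alone, where the median of all genes moved to 0.52 and that of the members to -0.09, and -2.01 and -1.59 with the spike-ins, where the medians were 0.06 and -0.58 (log2). In 15 of the 31 genes (48.4%) every EGFP library lay under every vector library, against 21.2% of all genes, and in 4 (12.9%, against 24.6% of all genes) every EGFP library lay above.

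ERG4 fell most. The EGFP libraries held 350, 380 and 388 CPM of ERG4, against 1450, 1596 and 1378 CPM in the vector libraries. The groups were far apart, and the level was 3.95-fold lower with EGFP (log2 fold change -1.98 ± 0.29 SE, edgeR FDR = 0.00234). ERG10 stood at 526, 540 and 490 CPM in EGFP libraries, against 1659, 1324 and 1422 CPM in vector libraries, again with no overlap. It was 2.83-fold lower (log2 fold change -1.50 ± 0.31 SE, edgeR FDR = 0.0104). The fall thus met the first enzyme of the mevalonate pathway and the last enzyme of the sterol pathway, which in vector cells had the highest mean levels of the set. The ERG4 call held whichever library was left out, while that of ERG10 was lost without vector replicate 1 or EGFP replicate 1.

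The remaining calls with EGFP were in the late pathway at the ER. ERG28 (YER044C), a scaffold that holds the C-4 demethylation enzymes together, had 80.6, 80.9 and 112 CPM in EGFP libraries, against 232, 145 and 198 CPM in vector libraries (log2 fold change -1.07 ± 0.29 SE, edgeR FDR = 0.031). ERG24 (YNL280C), a sterol reductase that acts just after the lanosterol demethylase Erg11, had 125, 132 and 121 CPM in EGFP libraries, against 249, 216 and 236 CPM in vector libraries (1.85-fold lower, log2 fold change -0.89 ± 0.26 SE, edgeR FDR = 0.0414). The groups of both genes did not overlap. Both calls were near the threshold: ERG28 lost it in 4 of the 9 fits that left out a library (vector replicate 1 or 3, EGFP replicate 1 or 2), and ERG24 in 6, those without any of the vector or EGFP replicates.

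Among the 7 genes of the mevalonate stage, ERG10 was the only call with EGFP, 6 values were below 0 and the median log2 fold change was -0.61. The 2 isozymes of HMG-CoA reductase, the rate-limiting enzyme, did not pass the test. HMG1 (YML075C) averaged 160 ± 18.1 CPM in EGFP cells and 283 ± 69.6 CPM in vector cells (SD, n = 3 each), and HMG2 (YLR450W) 166 ± 6.9 CPM in EGFP cells and 307 ± 78.1 CPM in vector cells. In both, the EGFP libraries all lay under the vector libraries. The stage's value above 0 was that of ERG8 (YMR220W), the phosphomevalonate kinase, with a log2 fold change of 0.31 ± 0.27 (SE) and edgeR FDR = 0.471.

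None of the 5 genes from IDI1 to the ring closure of squalene was called with EGFP, and their log2 fold changes lay between -0.99 and 0.11. ERG1 (YGR175C), the squalene epoxidase, averaged 352 ± 49 CPM in EGFP cells and 700 ± 148 CPM in vector cells, without overlap (edgeR FDR = 0.179). IDI1 (YPL117C), the isomerase that balances the isoprenoid building blocks, had 31.3, 29.1 and 41.1 CPM in EGFP libraries, against 31.1, 40.8 and 29.2 CPM in vector libraries, with no visible shift. Of the 12 late genes, 3 were called lower (ERG24, ERG28 and ERG4) and 11 values were below 0. The value above 0 belonged to ERG6 (YML008C), the sterol methyltransferase that gives ergosterol its fungal side chain, at 74.2 ± 6.54 CPM in EGFP cells and 50.8 ± 14.5 CPM in vector cells (log2 fold change 0.55 ± 0.26 SE, edgeR FDR = 0.182).

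Electron supply and ester formation gave no calls. NCP1 (YHR042W), the reductase that feeds electrons to the cytochrome P450 enzymes Erg11 and Erg5, averaged 232 ± 65.9 CPM in EGFP cells and 463 ± 87 CPM in vector cells (edgeR FDR = 0.0867). ARE1 (YCR048W), which esterifies sterols for storage, averaged 111 ± 30.7 CPM in EGFP cells and 225 ± 10.2 CPM in vector cells (edgeR FDR = 0.319). Both were without overlap between the groups. ARE1 overlaps the gene YCR050C on the other strand, and whether the counting used strand is not given in the sources used here. The standard errors of members that were not called ranged over 0.26 to 0.65 on the log2 scale, so differences of the size of those called could pass unseen in the noisier genes.

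**Figure D2:**
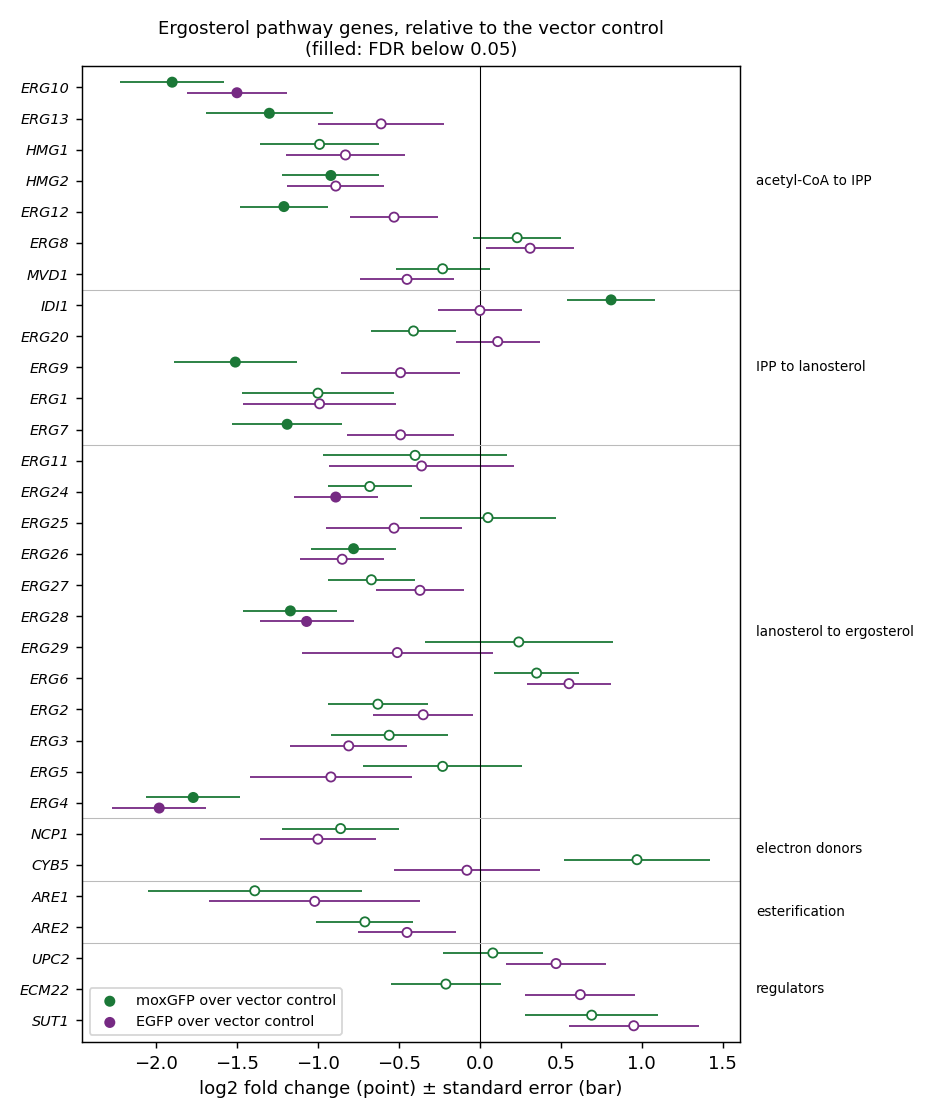
For each of the 31 genes, in pathway order, points give the log2 fold change (x axis) of moxGFP over the vector control and of EGFP over the vector control, with bars of 1 standard error on either side from the edgeR fit, and filled points mark an FDR under 0.05. ERG10 and ERG4 with moxGFP, at -1.90 and -1.77, and ERG4 with EGFP, at -1.98, lie farthest to the left, and IDI1 is the filled point to the right of 0.

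moxGFP overexpression against the same vector libraries asks how the pathway responds to the GFP without cysteines. Here 9 members were lower and 1 was higher at FDR under 0.05. That is 29% called lower, against 14% of all genes tested, and 3.23% called higher, against 14.8% of all genes. The median log2 fold change was -0.67 over the members and 0.14 over all genes, and 23 of the 31 values were below 0. In 15 members (48.4%, against 22.4% of all genes) every moxGFP library lay under every vector library, and in 1 (3.23%, against 22.9%) every moxGFP library lay above. With library size alone ERG10 was the sole member called, and with the ERCC spike-ins 0 were, while calls over all genes fell to 3.91 and 0.442%. The log2 fold changes of ERG10 were -1.97 and -2.19 under these scalings, and the members' medians -0.71 and -0.86. Both comparisons use the same 3 vector libraries, so their values are not independent of each other.

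ERG10 and ERG4 were again the members that fell most. ERG10 stood at 503, 406 and 271 CPM in moxGFP libraries, against 1659, 1324 and 1422 CPM in vector libraries (3.73-fold lower, log2 fold change -1.90 ± 0.32 SE, edgeR FDR = 0.00298). ERG4 stood at 524, 416 and 354 CPM in moxGFP libraries, against 1450, 1596 and 1378 CPM in vector libraries (3.42-fold lower, log2 fold change -1.77 ± 0.29 SE, edgeR FDR = 0.00268). In these genes replicate 2 lay between the other moxGFP libraries. Without that replicate the log2 fold changes were -1.93 ± 0.33 and -1.76 ± 0.30 (SE), and both calls were kept whichever library was left out.

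The mevalonate stage held 4 of the calls, ERG10 among them. ERG13 (YML126C), the HMG-CoA synthase, had 149, 51.9 and 105 CPM in moxGFP libraries, against 260, 197 and 296 CPM in vector libraries (2.46-fold lower, log2 fold change -1.30 ± 0.39 SE, edgeR FDR = 0.0307). HMG2 had 200, 174 and 113 CPM in moxGFP libraries, against 364, 218 and 339 CPM in vector libraries (1.90-fold lower, log2 fold change -0.92 ± 0.30 SE, edgeR FDR = 0.0419). ERG12 (YMR208W), the mevalonate kinase, had 43.8, 27.1 and 27.8 CPM in moxGFP libraries, against 78.6, 72.2 and 79.1 CPM in vector libraries (2.32-fold lower, log2 fold change -1.21 ± 0.27 SE, edgeR FDR = 0.00917). The groups of all 3 genes were separate, and without moxGFP replicate 2 the log2 fold changes were -0.99 for ERG13, -0.98 for HMG2 and -1.10 for ERG12, all called. ERG12 was called whichever library was left out, while ERG13 was lost without vector replicate 1 or 3 or moxGFP replicate 3. HMG2 was lost in 6 of the 9 such fits, those without vector replicate 1 or 3, any of the EGFP replicates, or moxGFP replicate 3. HMG1 and HMG2 are paralogs, 81.1% identical over 37.9% of the HMG1 coding sequence, so reads from that stretch could be split between them.

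Between IDI1 and lanosterol, ERG9 and ERG7 fell and IDI1 rose. ERG9 (YHR190W), the squalene synthase that commits isoprenoids to sterols, had 105, 34.4 and 72.8 CPM in moxGFP libraries, against 231, 152 and 224 CPM in vector libraries (2.85-fold lower, log2 fold change -1.51 ± 0.38 SE, edgeR FDR = 0.0141). ERG7 (YHR072W), the lanosterol synthase, had 63.9, 24.2 and 38.8 CPM in moxGFP libraries, against 118, 91.9 and 82.2 CPM in vector libraries (2.28-fold lower, log2 fold change -1.19 ± 0.34 SE, edgeR FDR = 0.0233). Replicate 2 was the lowest moxGFP library in both, and without it the log2 fold changes were -1.19 ± 0.28 for ERG9 and -0.93 ± 0.28 for ERG7 (SE), still called. Without vector replicate 1 both calls were lost, as was that of ERG9 without vector replicate 3 and that of ERG7 without moxGFP replicate 3. IDI1 had 50.2, 55.1 and 71.9 CPM in moxGFP libraries, against 31.1, 40.8 and 29.2 CPM in vector libraries (1.75-fold higher, log2 fold change 0.81 ± 0.27 SE, edgeR FDR = 0.0414). It was the sole member called higher, its call was lost without vector replicate 1 or 3, EGFP replicate 1 or 2, or moxGFP replicate 3, and without moxGFP replicate 2 it was kept (edgeR FDR = 0.0224).

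Late in the pathway, ERG28 and ERG26 were called with ERG4. ERG28 had 79, 106 and 70.6 CPM in moxGFP libraries, against 232, 145 and 198 CPM in vector libraries (2.25-fold lower, log2 fold change -1.17 ± 0.29 SE, edgeR FDR = 0.0141). ERG26 (YGL001C), a dehydrogenase of the C-4 demethylation complex that ERG28 organizes, had 60.6, 79.3 and 60.3 CPM in moxGFP libraries, against 139, 90.6 and 115 CPM in vector libraries (1.72-fold lower, log2 fold change -0.78 ± 0.26 SE, edgeR FDR = 0.0443). The libraries of the groups did not overlap in either gene, and without moxGFP replicate 2 the log2 fold changes were -1.36 and -0.93, both called. The ERG26 call was lost in 7 of the 9 fits that left out a library, all but those without vector replicate 2 or moxGFP replicate 2, and the ERG28 call without vector replicate 1 or moxGFP replicate 3.

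The members that were not called with moxGFP included some of the best-known genes of the pathway. ERG11 (YHR007C), the lanosterol demethylase that azole antifungals inhibit, averaged 421 ± 307 CPM in moxGFP cells and 555 ± 124 CPM in vector cells (edgeR FDR = 0.614), and ERG25 (YGR060W), the C-4 methyl sterol oxidase, 302 ± 167 CPM in moxGFP cells and 293 ± 35 CPM in vector cells (edgeR FDR = 0.941). In both, replicate 2 lay far under the other moxGFP libraries, and without it the means were 589.9 and 398.5 CPM and the log2 fold changes 0.08 ± 0.30 for ERG11 and 0.44 ± 0.26 for ERG25 (SE, edgeR FDR = 0.847 and 0.194). ERG20 (YJL167W), which makes farnesyl diphosphate, averaged 89 ± 11.2 CPM in moxGFP cells, 127 ± 16.6 CPM in EGFP cells and 118 ± 24.8 CPM in vector cells, and MVD1 (YNR043W), the last enzyme of the mevalonate stage, 93.4 ± 23.1 CPM in moxGFP cells, 80.4 ± 5.45 CPM in EGFP cells and 110 ± 27.7 CPM in vector cells. ERG27 (YLR100W), the ketoreductase of the C-4 demethylation complex, averaged 56.2 ± 14.7 CPM in moxGFP cells, 69.2 ± 5.42 CPM in EGFP cells and 89.5 ± 14 CPM in vector cells. Neither protein's effect on these 3 genes passed the test. ERG29, the lowest member outside the transcription factors, was at 6.77 ± 4.23 CPM in moxGFP cells, 4.19 ± 2.6 CPM in EGFP cells and 5.91 ± 2.67 CPM in vector cells.

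**Figure D3:**
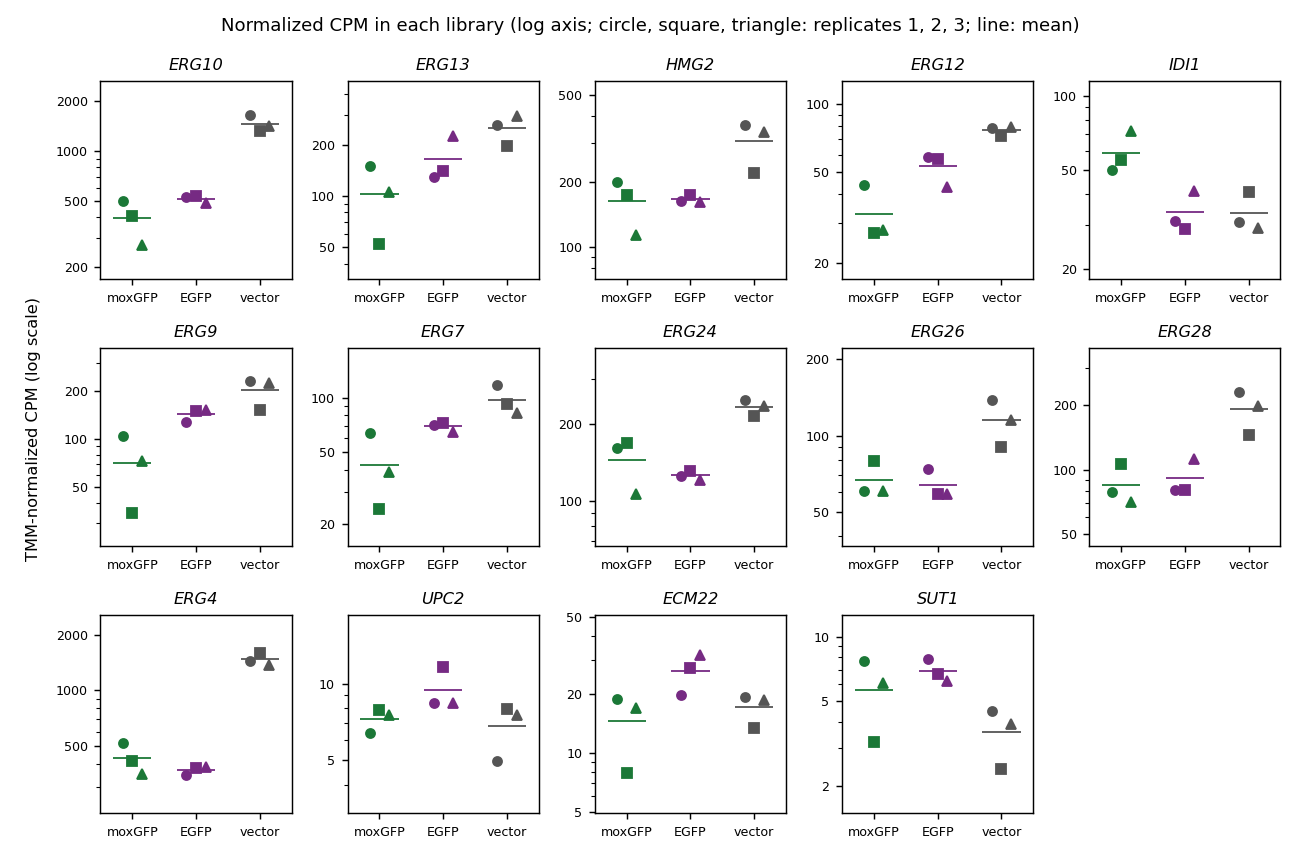
CPM on a log axis in each of the 9 libraries (circle, square and triangle for replicates 1, 2 and 3, with group means as lines) for the members called in a comparison and the 3 transcription factors. The moxGFP and EGFP points of ERG10 and ERG4 lie at 271 to 540 CPM, under all vector points at 1324 to 1659 CPM, and IDI1 shows the moxGFP points, at 50.2 to 71.9 CPM, above all others.

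The setting of moxGFP directly against EGFP, which asks whether the pathway differs between the GFPs, gave no call. Of the 31 members, 0 were higher and 0 lower at FDR under 0.05, where 7.48% of all genes tested were called higher and 7.07% lower. At an unadjusted p under 0.05 there were 5, and the smallest FDR was 0.0619, for IDI1, whose 50.2, 55.1 and 71.9 CPM in moxGFP libraries lay above its 31.3, 29.1 and 41.1 CPM in EGFP libraries (log2 fold change 0.81 ± 0.27 SE, edgeR). ERG9 was at 70.7 ± 35.3 CPM in moxGFP cells and 144 ± 13.2 CPM in EGFP cells, without overlap (log2 fold change -1.02 ± 0.37 SE, edgeR FDR = 0.0819), and its value without moxGFP replicate 2 was -0.65 ± 0.28 (edgeR FDR = 0.103). DESeq2's Wald test called IDI1 higher and ERG9 lower, and limma with cyclic loess scaling called IDI1 higher. The median log2 fold change was -0.10 over the members and 0.01 over all genes. For the genes that fell most against the vector the log2 fold change of moxGFP over EGFP was 0.21 ± 0.28 for ERG4 and -0.40 ± 0.31 for ERG10 (SE), with an edgeR FDR of 0.635 and 0.389. Genes called with moxGFP and not with EGFP (ERG9, ERG13, ERG12, ERG7, HMG2, ERG26 and IDI1), or the reverse (ERG24), were therefore not shown to differ between the GFPs with all libraries. Without moxGFP replicate 1, which leaves replicates 2 and 3, ERG12, ERG7 and ERG9 were called lower in moxGFP over EGFP (edgeR FDR = 0.0406, 0.0363 and 0.0315), and without moxGFP replicate 2 none of these 3 was (edgeR FDR = 0.166, 0.318 and 0.103), while IDI1 was called higher (edgeR FDR = 0.0277).

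The library of moxGFP replicate 2 was low for much of the pathway. Against the mean of moxGFP replicates 1 and 3, the members' median log2 ratio of CPM + 0.5 in replicate 2 was -0.65, where the median of all genes was -0.0587. In 13 of the 31 genes it was under -1, as it was for 21.4% of all genes, and in 0 it was over 1, where 16.3% of all genes were. ARE1 was lowest, at 10.8 CPM in replicate 2, against 164 and 81 CPM in replicates 1 and 3 (log2 ratio -3.45), and ERG11 followed, at 83.1 CPM against 682 and 498 CPM (log2 ratio -2.82). ERG1 had 120 CPM in replicate 2, against 594 and 338 CPM. ERG10, ERG4, ERG2, MVD1, ERG24 and ERG26 were among the members in which replicate 2 was within or above the range of the other moxGFP libraries. No member was under -1 in any of the other 8 libraries when each was set against the rest of its group. The 61.1% of ribosomal RNA in replicate 2 moved with these values, and its part in them was not tested. With the ribosomal RNA entries left out of the fit, the same members were called, and ERG26 was called lower with EGFP as well.

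Leaving out moxGFP replicate 2 changed the counts of called members. With EGFP, 12 members were then lower and 1 higher than in the vector control, where 17.2% of all genes were lower and 14.8% higher. The additions were ARE1, ERG1, ERG3, ERG5, ERG26, HMG1, HMG2 and NCP1, all lower, and SUT1, higher. With moxGFP, 12 were lower and 2 higher, where 18.8% of all genes were lower and 18.5% higher, and ARE1, ARE2 (YNR019W), ERG24 and, higher, CYB5 (YNL111C) were added. For moxGFP over EGFP, 4 were higher and 0 lower, where 11.6% of all genes were higher and 10.1% lower. These 4 were CYB5, ERG25, ERG5 (YMR015C) and IDI1. CYB5, cytochrome b5, which passes electrons to the late desaturase and oxidase steps, had 43.2 and 73.3 CPM in the other moxGFP libraries, against 21.1, 19.3 and 24.2 CPM in EGFP libraries (log2 fold change 1.48 ± 0.29 SE without replicate 2, edgeR FDR = 0.00355). With replicate 2, at 15.5 CPM, it was 1.04 ± 0.45 (SE, edgeR FDR = 0.133). ERG25 and ERG5, a late desaturase, had log2 fold changes of 1.01 ± 0.26 and 1.13 ± 0.35 (SE) without replicate 2. These moxGFP values then rested on 2 libraries.

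**Figure D4:**
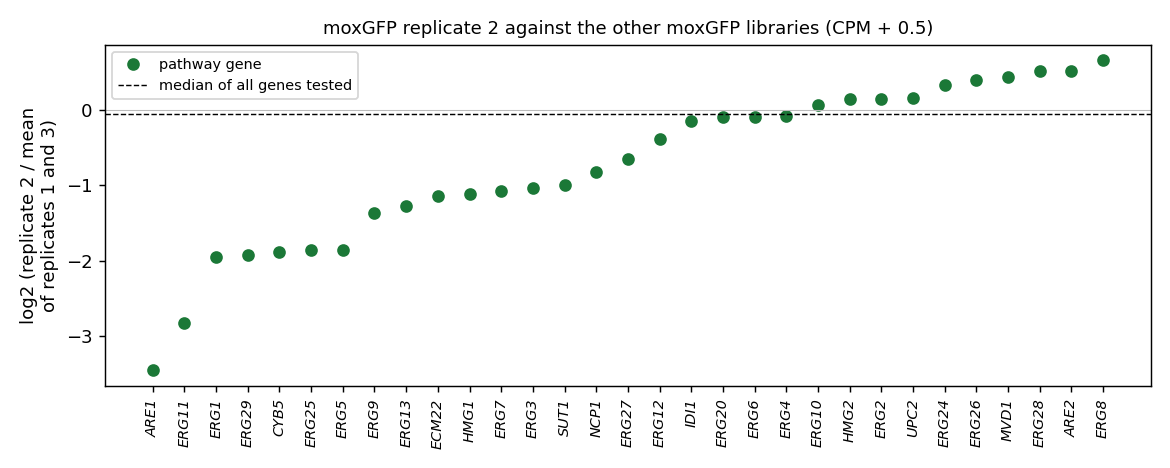
For each of the 31 genes, sorted along the x axis, the y axis gives the log2 ratio of CPM + 0.5 in moxGFP replicate 2 to the mean of moxGFP replicates 1 and 3, and the dashed line is the median of all genes tested, -0.0587. The points reach down to -3.45 (ARE1) and -2.82 (ERG11), and the highest is ERG8 at 0.66.

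No fall was called for the transcription factors that govern the pathway. UPC2 had 6.39, 7.87 and 7.56 CPM in moxGFP libraries, 8.39, 11.6 and 8.41 CPM in EGFP libraries and 4.98, 7.94 and 7.54 CPM in vector libraries. ECM22, its paralog, had 18.9, 7.87 and 17 CPM in moxGFP libraries, 19.9, 27.4 and 32 CPM in EGFP libraries and 19.4, 13.4 and 18.7 CPM in vector libraries. SUT1, an activator of sterol uptake, had 7.67, 3.21 and 6.06 CPM in moxGFP libraries, 7.9, 6.72 and 6.19 CPM in EGFP libraries and 4.5, 2.4 and 3.88 CPM in vector libraries. For all 3 factors each EGFP library lay above each vector library, though narrowly for UPC2 and ECM22, and the moxGFP libraries overlapped with the vector. Such a separation was common, as 24.6% of all genes had every EGFP library above every vector library. With EGFP the log2 fold changes were 0.47 ± 0.31 for UPC2, 0.62 ± 0.34 for ECM22 and 0.95 ± 0.40 for SUT1 (SE), and none was called (edgeR FDR = 0.335, 0.241 and 0.133). With moxGFP over vector they were 0.08 ± 0.31 for UPC2, -0.21 ± 0.34 for ECM22 and 0.69 ± 0.41 for SUT1 (SE). None of these was called either (edgeR FDR = 0.858, 0.653 and 0.21), and with such errors a modest fall could pass unseen. These genes had few counts, and the mRNA level says nothing of the activity of the proteins.

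The promoters of the members that fell most and of the member that rose are shown because the motifs that sterol regulators bind were looked for in them. Each stretch runs 5′ to 3′ on the strand of its gene, from 250 bases before the start codon to 50 bases into the coding sequence, in the RefSeq reference (build R64), with the start codon in capitals. That build was used for the sequences alone, since the counts carry no coordinates. ERG10 lies at chrXVI:497846-498145 on the plus strand, ERG4 at chrVII:472605-472904 on the plus strand, and IDI1 at chrXVI:328681-328980 on the minus strand, and no other annotated gene overlaps these windows.
ERG10: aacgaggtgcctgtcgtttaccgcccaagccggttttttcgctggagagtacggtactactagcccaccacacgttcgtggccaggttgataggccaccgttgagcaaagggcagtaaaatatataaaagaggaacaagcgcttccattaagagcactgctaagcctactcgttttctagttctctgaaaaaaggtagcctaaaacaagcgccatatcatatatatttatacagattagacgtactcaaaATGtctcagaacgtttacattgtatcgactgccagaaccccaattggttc
ERG4: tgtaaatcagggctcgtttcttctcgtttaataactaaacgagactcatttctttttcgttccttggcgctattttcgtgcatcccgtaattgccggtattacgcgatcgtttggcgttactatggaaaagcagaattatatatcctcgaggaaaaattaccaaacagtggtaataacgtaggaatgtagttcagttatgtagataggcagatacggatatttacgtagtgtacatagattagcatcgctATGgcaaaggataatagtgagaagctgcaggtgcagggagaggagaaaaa
IDI1: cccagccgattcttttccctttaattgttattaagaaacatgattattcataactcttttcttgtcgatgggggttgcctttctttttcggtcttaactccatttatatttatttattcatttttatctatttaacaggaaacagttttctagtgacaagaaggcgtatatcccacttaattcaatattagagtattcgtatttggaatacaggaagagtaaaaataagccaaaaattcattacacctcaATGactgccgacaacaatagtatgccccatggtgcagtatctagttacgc

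The sterol regulatory element core TCGTATA, which Upc2 and Ecm22 bind, was searched on both strands in the same windows of all 31 members. It was found in 3 of them (9.68%), ERG13, ERG2 and ERG8, against 248 of 6006 protein-coding genes (4.13%), and the copy before ERG2 lies inside an annotated noncoding RNA gene. The related anaerobic response element, which Upc2 also binds, was searched in its forms TCGTTTAG and TCGTTCAG, chosen after the counts had been seen. TCGTTTAG was in 7 members (22.6%), ARE1, ERG20, ERG4, ERG7, ERG9, MVD1 and NCP1, against 56 of all genes (0.932%), and TCGTTCAG in 2 (6.45%), CYB5 and ERG11, against 48 (0.799%). The binding motif of the heme-responsive factor Hap1 was in 0 members, against 8 of all genes (0.133%). The sterol motifs share their first bases TCGT but cannot match at the same place, and a match is a description of letters, not of a bound site.

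The stretches that hold the anaerobic response element before the 3 carriers that were lower with moxGFP are given with the motif in capitals. It reads on the opposite strand, as CTAAACGA, before ERG4 (chrVII:472612-472673) and ERG9 (chrVIII:484678-484739), and on the gene's own strand before ERG7 (chrVIII:238889-238950). Also given is the stretch before ERG13 that holds the core TCGTATA on the gene's strand, 208 bases before the start codon. It lies at chrXIII:20716-20776, on the minus strand of the chromosome, and reaches into the neighbouring gene YML125C. ERG13 has a second match, not printed, on the opposite strand 95 bases before the start codon. Its stretch, at chrXIII:20603-20663, overlaps no annotated gene.
ERG4 element: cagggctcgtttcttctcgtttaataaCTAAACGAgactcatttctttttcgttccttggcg
ERG7 element: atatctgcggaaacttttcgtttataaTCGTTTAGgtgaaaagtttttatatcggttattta
ERG9 element: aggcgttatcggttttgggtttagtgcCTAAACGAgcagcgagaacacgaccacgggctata
ERG13 element: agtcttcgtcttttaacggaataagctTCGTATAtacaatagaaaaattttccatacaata

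Calls were found among carriers and among members without the motifs. Of the 9 members with either form of the anaerobic response element, 1 was lower with EGFP (ERG4) and 3 were lower with moxGFP (ERG4, ERG7 and ERG9), with median log2 fold changes of -0.49 and -0.86. Of the 19 members with none of the 3 sterol motifs, 3 were lower with EGFP, and with moxGFP 5 were lower and 1 higher, with medians of -0.53 and -0.67. ERG10, with log2 fold changes of -1.50 with EGFP and -1.90 with moxGFP, had none of them in its window. These counts were not tested against each other.

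**Figure D5:**
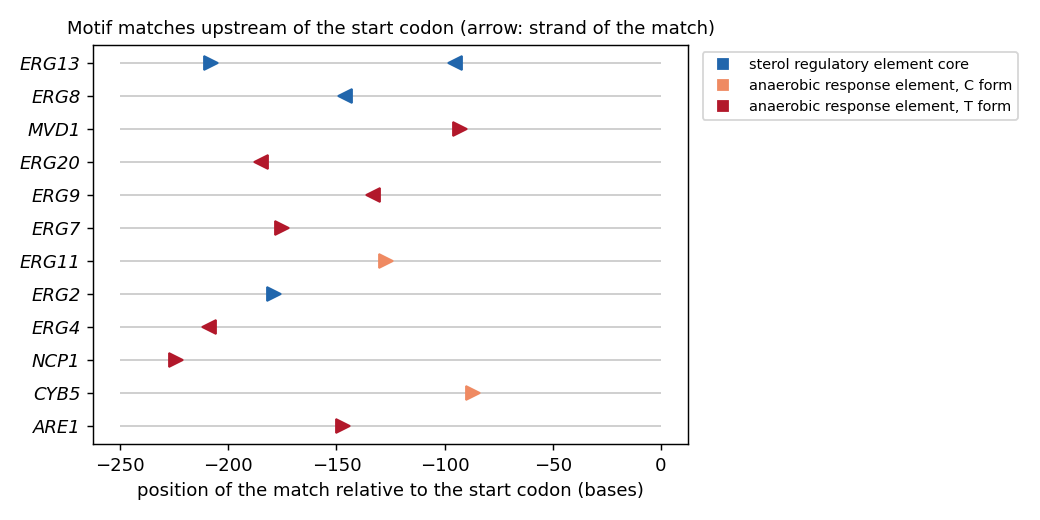
For each of the 12 members with a match, a line stands for the 250 bases before the start codon (x axis, bases relative to the start codon), and an arrow marks each match and its strand, with a colour for each of the 3 motifs. The anaerobic response element lies 87 to 224 bases before the start codon in its 9 carriers, and the sterol regulatory element core appears in ERG13, ERG8 and ERG2.

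Beyond synthesis, lists of genes for the wider sterol economy were read from the same fit, by counts called and by their most changed members. The shares of all genes to set them beside are those already given: for EGFP 7.6% called higher and 7.76% lower, and for moxGFP 14.8% higher and 14% lower. Among 10 genes of sterol uptake and anaerobic cell wall mannoproteins, 1 was higher and 2 lower with EGFP (10 and 20%), and 2 higher and 2 lower with moxGFP (20 and 20%; median log2 fold changes 0.39 for EGFP and -0.13 for moxGFP). TIR1 (YER011W), a cell wall mannoprotein made in cold or without oxygen, had 16.1, 14.5 and 10.1 CPM in EGFP libraries, against 3.08, 2.1 and 2.82 CPM in vector libraries (log2 fold change 2.35 ± 0.48 SE, edgeR FDR = 0.01). It was also called higher with moxGFP, at 7.08, 12.2 and 2.81 CPM (log2 fold change 1.42 ± 0.49 SE, edgeR FDR = 0.0488), but not without moxGFP replicate 2 (0.89 ± 0.41 SE, edgeR FDR = 0.102). Its relative TIR2 (YOR010C) had 71, 148 and 16.4 CPM in moxGFP libraries, 19.6, 14.2 and 13.8 CPM in EGFP libraries and 18.1, 13 and 11.4 CPM in vector libraries, so that its call with moxGFP (log2 fold change 2.46 ± 0.60 SE, edgeR FDR = 0.013) rested on 2 libraries, while replicate 3 overlapped with the vector. Without replicate 2 it was 1.62 ± 0.43 (SE, edgeR FDR = 0.00988), a call that rested on replicate 1 alone. DAN4 (YJR151C) was lower with moxGFP, at 33.4, 5.54 and 18.8 CPM, against 117, 94.9 and 68 CPM in vector libraries (log2 fold change -2.25 ± 0.52 SE, edgeR FDR = 0.0108, and -1.84 ± 0.36 without replicate 2). These genes belong to repetitive families whose reads the counting may split between relatives.

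In the sterol transport list, the longest with 18 genes, EGFP gave 5 calls higher and 1 lower (27.8 and 5.56%), moxGFP 2 higher and 1 lower (11.1 and 5.56%), and moxGFP over EGFP 0 higher and 4 lower (22.2% lower, against 7.07% of all genes), with median log2 fold changes of 0.44, 0.16 and -0.54. PRY2 (YKR013W), a secreted sterol-binding protein, had 164, 65.9 and 79.2 CPM in moxGFP libraries, 674, 709 and 463 CPM in EGFP libraries and 152, 111 and 150 CPM in vector libraries. It rose with EGFP (4.47-fold, log2 fold change 2.16 ± 0.38 SE, edgeR FDR = 0.00551), and moxGFP over EGFP was -2.58 ± 0.39 (SE, edgeR FDR = 0.00499). LAM4 (YHR080C), which transfers sterol between plasma membrane and ER, had 24.6, 21.3 and 25.5 CPM in moxGFP libraries, 36.7, 38.5 and 40.8 CPM in EGFP libraries and 9.96, 13.6 and 14.8 CPM in vector libraries. It was higher with both proteins, 1.86-fold with moxGFP and 3.01-fold with EGFP (edgeR FDR = 0.0208 and 0.00298). NPC2 (YDL046W), the vacuolar sterol-binding protein, was lower with both, at 395, 233 and 274 CPM in moxGFP libraries, 499, 513 and 270 CPM in EGFP libraries and 948, 1023 and 820 CPM in vector libraries (edgeR FDR = 0.00732 with moxGFP and 0.0467 with EGFP).

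Of the 11 genes of enzyme turnover at the ER, which includes the degradation of HMG-CoA reductase, 2 were lower with EGFP (18.2%) and 3 with moxGFP (27.3%), and 0 were higher (median log2 fold changes -0.44 for EGFP and -0.67 for moxGFP). SPF1 (YEL031W), an ER membrane transporter whose loss disturbs HMG-CoA reductase turnover, had 719, 426 and 415 CPM in moxGFP libraries, 258, 396 and 444 CPM in EGFP libraries and 2211, 1763 and 1704 CPM in vector libraries. That was 3.64-fold lower with moxGFP and 5.17-fold lower with EGFP (edgeR FDR = 0.00483 and 0.00286). USA1 (YML029W), a scaffold of the Hrd1 ubiquitin ligase, had 30.3, 37.3 and 19.9 CPM in moxGFP libraries, 45, 62.5 and 49.2 CPM in EGFP libraries and 141, 129 and 91.6 CPM in vector libraries (edgeR FDR = 0.00196 with moxGFP and 0.022 with EGFP). HRD1 (YOL013C), the ligase itself, was 1.66-fold lower with moxGFP (log2 fold change -0.73 ± 0.24 SE, edgeR FDR = 0.0398), at 35.1 ± 3.35 CPM in moxGFP cells and 58.4 ± 10.1 CPM in vector cells.

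In the branches that share precursors or heme with the pathway, the lists were short and few genes were called. Of 13 genes of the isoprenoid branches, 1 was lower with EGFP (7.69%) and 2 with moxGFP (15.4%; median log2 fold changes 0.22 for EGFP and -0.14 for moxGFP). In this list 0 were higher with EGFP or moxGFP, where 7.6 and 14.8% of all genes were. BET2 (YPR176C), a subunit of the enzyme that attaches geranylgeranyl groups to Rab proteins, averaged 60.4 ± 21.8 CPM in moxGFP cells, 72.9 ± 2.91 CPM in EGFP cells and 163 ± 36.3 CPM in vector cells, and was lower with both (edgeR FDR = 0.0076 with moxGFP and 0.0262 with EGFP). NUS1 (YDL193W), which helps make dolichol, averaged 18.4 ± 2.15 CPM in moxGFP cells and 34 ± 7.51 CPM in vector cells (edgeR FDR = 0.0336). Of 10 genes of heme synthesis and its partners, 1 was higher with EGFP (10%), and 1 was higher and 2 lower with moxGFP (10 and 20%; medians -0.05 for EGFP and -0.40 for moxGFP). DAP1 (YPL170W), a heme-binding partner of Erg11, averaged 40.6 ± 16.6 CPM in EGFP cells and 18.9 ± 3.86 CPM in vector cells (edgeR FDR = 0.0425). HEM2 (YGL040C), an early enzyme of heme synthesis, averaged 42.3 ± 13.3 CPM in moxGFP cells and 103 ± 12.4 CPM in vector cells (edgeR FDR = 0.00991), while HEM4 (YOR278W), a later one, averaged 21.4 ± 11.6 CPM in moxGFP cells and 9.36 ± 1.45 CPM in vector cells, a call that was lost without moxGFP replicate 2 (edgeR FDR = 0.0493 with it and 0.117 without).

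Of 10 regulators of oxygen, heme and lipid response, 1 was higher and 0 lower with EGFP (10 and 0%), and 0 were called with moxGFP over vector. For moxGFP over EGFP, 0 were higher and 1 lower (0 and 10%, against 7.48 and 7.07% of all genes). The medians were 0.77 for EGFP and 0.30 for moxGFP over vector. MGA2 (YIR033W), a membrane-bound activator of the fatty acid desaturase gene, averaged 20.9 ± 2.93 CPM in moxGFP cells, 29.4 ± 4.87 CPM in EGFP cells and 15 ± 1.09 CPM in vector cells, and was higher with EGFP (log2 fold change 0.97 ± 0.24 SE, edgeR FDR = 0.0214). HAP5 (YOR358W), a subunit of the heme-activated CCAAT-binding complex, averaged 4.18 ± 2.18 CPM in moxGFP cells and 11.2 ± 2.23 CPM in EGFP cells (log2 fold change -1.36 ± 0.40 SE, edgeR FDR = 0.0445). Of the 5 genes of steryl ester hydrolysis and sterol acetylation, 1 was lower with moxGFP (20%, against 14% of all genes), and 0 were called with EGFP. The lower gene was SAY1 (YGR263C), a sterol deacetylase, at 18.6 ± 2.67 CPM in moxGFP cells and 32.4 ± 7.33 CPM in vector cells (log2 fold change -0.80 ± 0.26 SE, edgeR FDR = 0.0413). Of the calls over the vector named from all these lists, those of TIR1 with moxGFP and of HEM4 were lost without moxGFP replicate 2 and the others were kept. That is a weak check, because this fit called more of all genes: 32% with EGFP and 37.3% with moxGFP, against 15.4 and 28.8% with all libraries. How each of these calls fared under the other alternatives is not given gene by gene. The ester list's median log2 fold change was 0.01 with EGFP and -0.23 with moxGFP.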

How the data were processed

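Total RNA from 3 biological replicates of each of the 3 groups was sequenced by the authors as paired ends on an Illumina NextSeq 550, from TruSeq Stranded Total RNA libraries with ERCC spike-ins. Read quality was checked with FastP, alignment used HISAT2 2.2.0 and SAMtools 1.11, genes were quantified by StringTie, and edgeR 3.28.1 served for the authors' own test (versions per the submitters' processing notes). The genome build, annotation and strand setting are not given in the sources used here. The deposited table holds raw counts per gene, 7128 genes and 92 spike-in entries, which the authors made from the alignments with no scaling. In total RNA, ribosomal RNA and the GFP transcripts take up depth, so a library with more of them holds fewer reads of other genes.

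From these counts, all 9 libraries were fitted in 1 model with edgeR 4.0.16 in R 4.3.3 (TMM factors, filterByExpr, quasi-likelihood test, spike-ins left out), and FDR under 0.05 was called. A standard error is the absolute log2 fold change divided by the square root of the F statistic. The typical biological coefficient of variation was 0.364. The procedure was tested on simulated counts with large changes in well-counted genes, a coefficient of variation of 0.3 and no outlying library. That test does not cover smaller changes or an outlying library. Alternatives were limma 3.58.1, DESeq2 1.42.0, other scalings and filters, a replicate block, and leaving out each library. The members and the further lists were chosen with earlier results of these data known. All members may be named, those called and the 3 transcription factors with each library's value, and of each further list at most the 3 called genes with the largest change. The reference R64 (RefSeq) gave names and sequences: 6048 of the 7220 entries matched it by locus tag, the 31 members among them, and no member had a copy at 90% identity over 50% of its coding sequence.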

Additional observations from a re-analysis of the deposited data

Results flagged for a closer look

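Among the genes named from the wider sterol lists, the effects of moxGFP and EGFP differed in 3 by the direct test of moxGFP over EGFP. The lists held more such calls than these, as 4 genes of sterol transport were called lower. PRY2 differed by -2.58 on the log2 scale (edgeR FDR = 0.00499), with all moxGFP libraries under all EGFP libraries. TIR2 differed by 2.30 (edgeR FDR = 0.0292), with moxGFP replicate 3 overlapping the EGFP libraries, and HAP5 by -1.36 (edgeR FDR = 0.0445), without overlap. Without moxGFP replicate 2 the values were -2.30 for PRY2 (edgeR FDR = 0.000922), 1.50 for TIR2 (edgeR FDR = 0.0241) and -1.02 for HAP5 (edgeR FDR = 0.0359), all still called. The TIR2 call then rested on moxGFP replicate 1, at 71 CPM. Replicate 3, at 16.4 CPM, lay within the range of the EGFP libraries. No such difference was called for the 31 pathway genes with all libraries. Dixon's test for a single outlying library was not run on groups of 3.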

How the results depend on the processing

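No result reversed. With EGFP over vector, where 4 members were lower and 0 higher, scaling by library size alone or by ERCC spike-ins left 0 lower, limma with cyclic loess 2, DESeq2's Wald test 7, and a fit of the 2 groups alone 12. Leaving out each library gave 1 to 12 lower and 0 to 1 higher. With moxGFP over vector (9 lower, 1 higher), library size alone left 1 lower and 0 higher, ERCC 0 and 0, cyclic loess 4 and 2, and the 2 groups alone 5 and 0. Leaving out each library gave 3 to 12 lower and 0 to 2 higher. For moxGFP over EGFP (0 and 0), cyclic loess called 1 higher, DESeq2 1 higher and 1 lower, and leaving out each library 0 to 4 higher and 0 to 3 lower. Where the cause of a shift is not plain from the alternative it was not tested.

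The replicate numbers did not pair the libraries: deviations of libraries with the same number correlated at -0.356 to 0.273, and 3 of 9 pairs were over 0.1. A replicate block gave 2 members lower with EGFP, 7 lower and 0 higher with moxGFP, and 0 for moxGFP over EGFP. Library size alone moved the median of all genes to 0.52 for EGFP over vector and -0.47 for moxGFP over EGFP. ERCC scaling called 21, 28 and 4 of all genes in the 3 comparisons. The members' share of gene counts was 0.642% in EGFP and 0.879% in vector libraries, against 0.89 and 1.02% without ribosomal RNA and GFP entries and 0.891 and 1.03% of open reading frame counts. Of 1857 values of members under the alternatives, 1725 kept their side of the threshold, 83 lost and 49 gained a call, and 86 that were not called changed sign. Of 1017 values of further genes, 849 kept it, 155 lost and 13 gained one.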
